A study of Homo sapiens with 9 samples.

Results

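NLS-actin cells were compared with the parental HaCaT line over the whole transcriptome, on 6 of the 9 arrays of the study, to describe what actin sent to the nucleus changes in gene families and functions. HaCaT is a spontaneously immortalized line of human epidermal keratinocytes. NLS-actin cells stably carried β-actin joined to GFP and to a nuclear localization sequence, which moves the protein into the nucleus. WT-actin cells, measured on the other 3 arrays, stably carried β-actin joined to GFP without that sequence, and the parental line was not transfected. Both constructs were transfected as linearized plasmids and selected with G418 until the population was GFP-positive, and all lines grew in medium with serum. Each construct is represented by 1 stable population, so that nuclear actin and any other difference between these populations, the selection included, cannot be told apart. Each line has 3 arrays, which the methods call experimental replicates. It is not given whether these came from separately grown cultures, and p values then measure only the spread between these arrays, which may be technical.

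Actin is best known as the filament of the cytoskeleton, but monomers also shuttle through the nucleus, carried in by importin 9 and out by exportin 6. There actin is a subunit of chromatin remodelling complexes, associates with RNA polymerases, and binds the MRTF coactivators, which otherwise switch on the genes of serum response factor (SRF), many of which encode contractile and adhesive proteins. Keratinocytes use the same cytoskeleton for adhesion and contraction, and they mature by leaving the basal layer and building the cornified envelope.

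The values are MAS5 signals, linear intensities that were scaled to the same trimmed mean on every array, and differences are given on the log2 scale, where 1 unit is a 2-fold difference. Of 19775 genes, 7950 had a mean signal below 50 in both lines and are called dim. KRT5 and KRT14, the basal keratins, had signals of 6373 to 11964 and 7816 to 11331 on the 6 arrays, while all 6 haematopoietic, 5 of 6 endothelial, 7 of 10 fibroblast and 5 of 6 melanocyte markers had mean signals below 50. The summed signals of these lists were 71.5 to 78.2 on parental and 68.2 to 152 on NLS-actin arrays for haematopoietic, 82.5 to 120 and 79.7 to 235 for endothelial, 3120 to 4446 and 4693 to 6237 for fibroblast, and 2513 to 2779 and 1744 to 2485 for melanocyte markers. FBLN1 and COL1A1 made up most of the fibroblast sum and MITF most of the melanocyte sum. Replicate 2 of the parental line, replicate 1 of WT-actin cells and replicate 2 of NLS-actin cells stood apart from other arrays of their lines. They did so on 1 axis that held 57.9% of the variance within lines. In that order, their ratios of the 3' to the 5' ACTB control probe sets were 7.96, 14.9 and 12.8, against 3.82 to 7.98 on the other 6 arrays. The same ratios for GAPDH were 1.4, 3.07 and 1.64, against 1.39 to 1.95. Parental replicate 2 thus lay within the range of the other 6 arrays in both ratios, and NLS-actin replicate 2 in that of GAPDH. Some results are given with and without the 3 arrays that stood apart. In bulk RNA, fewer cells of a state and less RNA per cell cannot be told apart.

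ACTB, the gene of the construct's own actin, had signals of 8874, 13241 and 14977 on the parental arrays and 14473, 13886 and 15475 on the NLS-actin arrays. The groups overlapped, and the difference of 0.27 ± 0.20 (SE, n = 3 arrays per line) did not pass the test (adjusted p = 0.862). It is not given whether this probe set reads the transgene, so its value says nothing of how strongly the construct was expressed.

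Across all genes, 25 had an adjusted p under 0.05 for NLS-actin against parental arrays, which is 0.126% of those tested. Of these, 21 genes were down-regulated (0.106%) and 4 up-regulated (0.0202%). The split was 10 lower and 5 higher in a fit of both lines alone, and 5 lower and 5 higher without the intensity trend of the variances. The 3 arrays of one line lay beyond the 3 of the other for all 25, and 23 differed by more than 2-fold. Only 1 of them, ODAM, was dim. An unadjusted p under 0.05 with a fold above 2, the limits that the methods give without naming an adjustment, took in 626 genes, 228 higher and 398 lower, of which 396 (63.3%) were dim. The count of 25 depended on single arrays: it was 4 without parental replicate 1, 12 without parental replicate 2, 9 without parental replicate 3, 11 without NLS-actin replicate 1, 11 without NLS-actin replicate 3 and 15 without WT-actin replicate 2, which enters through the shared estimate of spread. Without the 3 arrays that stood apart the count was again 25, with 6 higher and 19 lower. Only 15 of those genes were among the 25 described here.

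**Figure D1:**
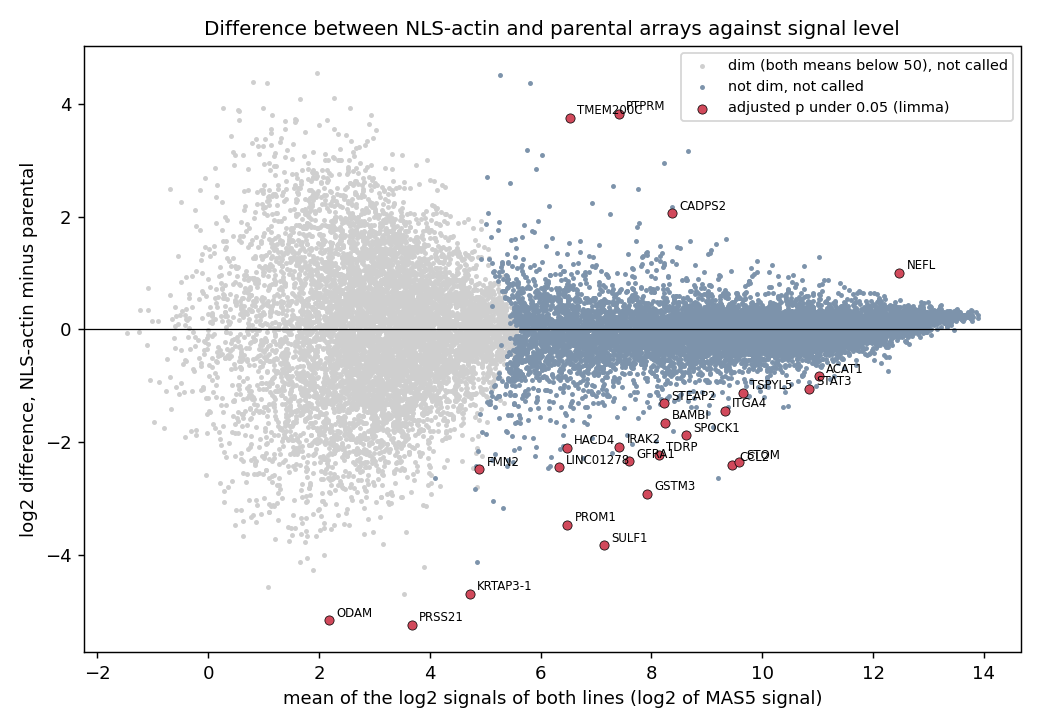
Each point is 1 of 19775 genes, with the mean of its log2 signals in both lines on the horizontal axis and the log2 difference NLS-actin minus parental on the vertical axis; grey points are dim, blue points are not dim, and red points are the 25 genes at an adjusted p under 0.05. Dim genes spread over a wide range in both directions, while 21 of the 25 called genes lie below 0.

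The called genes were spread over many functions and are given in an order chosen after their names were seen. Several encode proteins of the cell surface and its surroundings. SULF1, which trims sulfate from heparan sulfate chains and so alters growth factor binding, fell from signals of 616, 401 and 595 on the parental arrays to 39.4, 42.7 and 30.5 on the NLS-actin arrays (log2 difference -3.83 ± 0.26, adjusted p = 9.76e-05). All 3 WT-actin arrays, at 467, 428 and 458, lay within the range of the parental arrays. PROM1, a glycoprotein of membrane protrusions, fell by 3.47 on the log2 scale (adjusted p = 0.0069). ITGA4, the α4 integrin subunit that pairs with β1 to bind fibronectin, had parental signals of 1185, 1011 and 971 and NLS-actin signals of 426, 315 and 424 (-1.45 ± 0.19, adjusted p = 0.0113). It was the 1 integrin called among 25 measured. STOM, a scaffold protein of membrane microdomains, fell by 2.36 (adjusted p = 0.00107). The secreted proteoglycan gene SPOCK1 (-1.88, adjusted p = 0.013), the surface protease gene PRSS21 (-5.24, adjusted p = 0.021) and the metalloreductase gene STEAP2 (-1.31, adjusted p = 0.0372) also fell. PRSS21 had mean signals of 72.3 in parental and 2.26 in NLS-actin cells, so that the size of its fall is imprecise. It lay between -5.84 and -2.94 over all settings. In the opposite direction, PTPRM, a receptor phosphatase that binds its own kind on neighbouring cells, rose from 39.3, 78.6 and 23.7 to 433, 852 and 572 (3.83 ± 0.47, adjusted p = 0.0069), and the membrane protein gene TMEM200C rose from 22.5, 27.3 and 23.3 to 257, 537 and 253 (3.75 ± 0.44, adjusted p = 0.0069). The other probe set of TMEM200C had mean signals of 1.82 and 1.09, in the dim range. Of the other probe sets of STOM, one had means of 1505 and 256 (-2.60) and one had 3.23 and 7.15, in the dim range.

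Others belong to signalling and inflammation. CCL2, a chemokine that attracts monocytes, fell from 1481, 1278 and 2009 to 390, 367 and 181 (-2.40 ± 0.40, adjusted p = 0.0488). IRAK2, a kinase adaptor of interleukin 1 and Toll-like receptors, fell from 362, 292 and 395 to 63.2, 107 and 82.2 (-2.08 ± 0.28, adjusted p = 0.013). Its other probe sets were dim, with means of 11.9 and 12.3 and of 4.22 and 9.85. STAT3, the transcription factor of interleukin 6 family receptors, fell from 2731, 2430 and 2780 to 1526, 1171 and 1151 (-1.06 ± 0.17, adjusted p = 0.0355). In all 3 genes the lowest parental array lay above the highest NLS-actin array. BAMBI, a decoy receptor that dampens TGF-β signals, fell (-1.66, adjusted p = 0.0269), as did GFRA1, the binding receptor for GDNF (-2.34, adjusted p = 0.021).

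Genes of the cytoskeleton, metabolism and other functions completed the list. FMN2, a formin that nucleates actin filaments, fell from 78.9, 53.8 and 74.9 to 9.51, 18.3 and 10.5 (-2.48 ± 0.38, adjusted p = 0.0325), while the WT-actin arrays were at 473, 487 and 374, above both. It was called alone among 13 formins measured. Its other probe sets were dim, with differences of -0.10, -0.41 and -0.40. Over all settings the difference of FMN2 lay between -2.94 and -0.85. NEFL, the light neurofilament subunit, rose from 3911, 4343 and 3819 to 7831, 8049 and 8227 (1.0 ± 0.17, adjusted p = 0.0488), and CADPS2, which primes dense-core vesicles for release, rose from 163, 188 and 139 to 625, 744 and 657 (2.06 ± 0.21, adjusted p = 0.00212). CADPS2 was higher still in WT-actin cells, at 1763, 1195 and 1641, so that both actin lines lay above the parental line. The metabolic genes that fell were GSTM3, a glutathione transferase (-2.92, adjusted p = 0.0069), HACD4, of very long fatty acid synthesis (-2.10, adjusted p = 0.0353), and ACAT1, of mitochondrial ketone metabolism (-0.83, adjusted p = 0.0339). The remaining 5 genes, TDRP, TSPYL5, LINC01278, KRTAP3-1 and ODAM, fell by between 1.13 and 5.16 on the log2 scale (adjusted p = 0.00212, 0.0488, 0.0144, 0.0339 and 0.0339). ODAM had parental signals of 33.5, 27.6 and 19.1 and NLS-actin signals of 0.493, 0.725 and 1.07, all in the dim range. KRTAP3-1 had mean signals of 115 in parental and 6.06 in NLS-actin cells, and its difference lay between -5.37 and -3.15 over all settings.

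**Figure D2:**
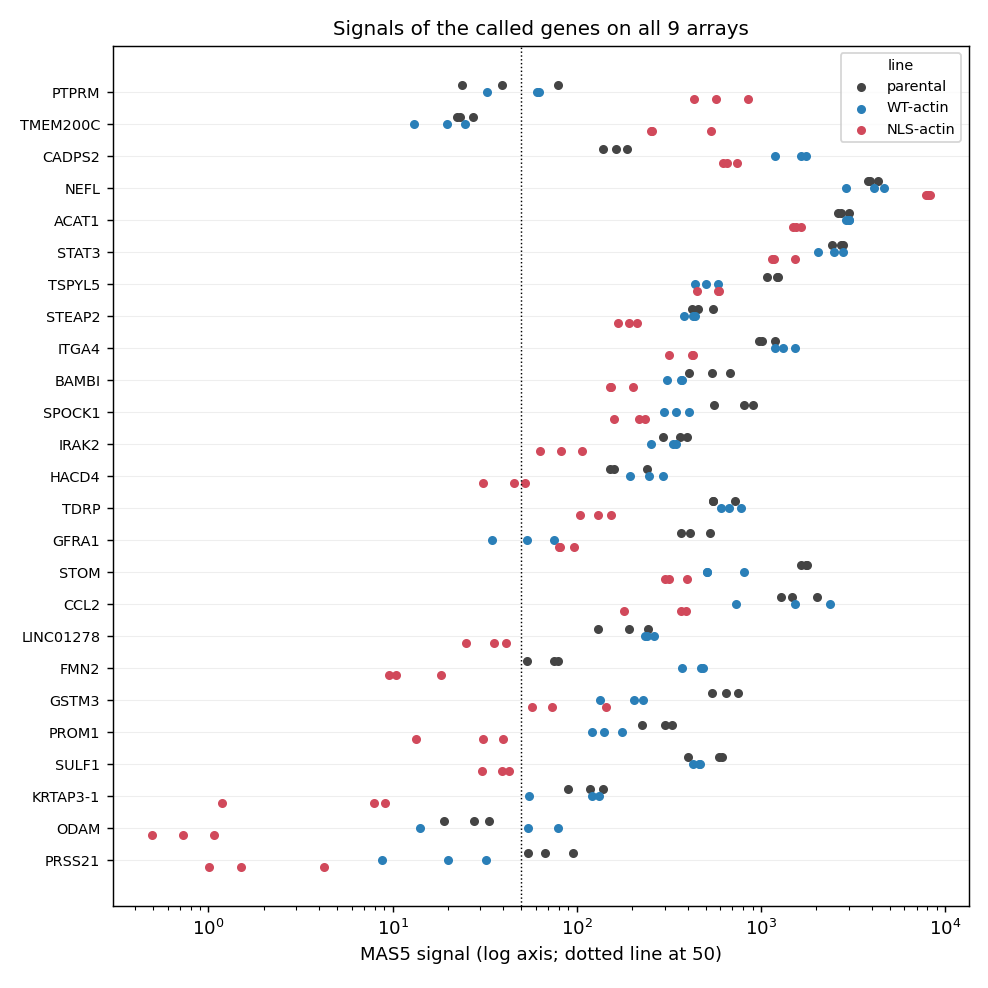
Signals of the 25 called genes on all 9 arrays, on a log axis, with 1 point per array and a colour per line; the dotted line marks a signal of 50. The NLS-actin points lie beyond all parental points for every gene, and the WT-actin points lie with the parental points for genes such as SULF1 and IRAK2 but close to the NLS-actin points for GFRA1 and TSPYL5.

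The fit was also used to compare NLS-actin with WT-actin cells, both of which carry tagged actin, although each is again 1 stable population. In that comparison 145 genes (0.733%) were called. Among the 25 genes, 17 also differed between NLS-actin and WT-actin cells in the same direction, although both comparisons share the NLS-actin arrays. The clearest were FMN2 (-5.18, adjusted p = 6.92e-05), SULF1 (-3.60, adjusted p = 6.92e-05), TDRP (-2.41, adjusted p = 0.000532) and ITGA4 (-1.80, adjusted p = 0.000827). GFRA1 and TSPYL5 did not pass this comparison, with differences of 0.72 (adjusted p = 0.538) and 0.09 (adjusted p = 0.94), and GSTM3, STOM and SPOCK1 were also low in WT-actin cells (adjusted p = 0.247, 0.138 and 0.258 for NLS-actin against WT-actin). Replicates of the same number were also treated as pairs, with the number as a block in these lines. This gave 27 genes, of which 20 were among the 25. ODAM, CCL2, TSPYL5, ACAT1 and NEFL no longer passed, with adjusted p of 0.0647, 0.0647, 0.0647, 0.0529 and 0.068. Added were GPRC5B (-2.64, adjusted p = 0.00601), LOXL2 (-1.74, adjusted p = 0.0471), EZH1 (-1.19, adjusted p = 0.0412), MYEF2 (-1.93, adjusted p = 0.0328), B3GNT7 (-1.38, adjusted p = 0.0378), LYPD6B (1.22, adjusted p = 0.0328) and MAL (2.49, adjusted p = 0.0262). LOXL2 cross-links collagen, EZH1 is a histone methyltransferase and MAL is a protein of apical membrane sorting.

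So few genes passed that the broader response was described by families. The 139 lists of gene families and functions were joined into 11 groups that held 6368 genes, 3743 of them not dim. For each group, the genes that were not dim and whose 3 NLS-actin arrays lay all above or all below the 3 parental arrays were counted and read against the same share of all 11825 genes that were not dim, which was 7.27% higher and 9.09% lower. With a difference above 2-fold as well, these shares were 0.575% and 1.35%, or 68 and 160 genes. Such counts are descriptions, since each gene was not corrected for the number of genes, and only the 25 genes above passed the test. Genes named from here on are given by values because they did not pass, unless stated. The filter keeps a gene that is bright in 1 line only, so counts or medians over all measured members are added for the lists whose median was beyond 0.2 and that are discussed.

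**Figure D3:**
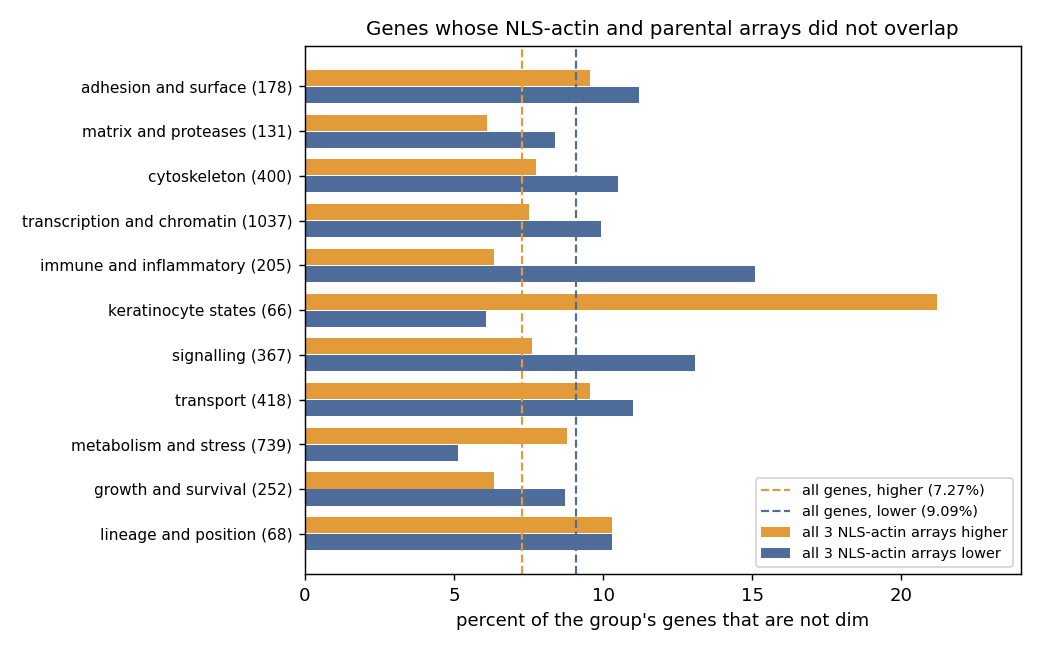
Percent of the genes of each group that are not dim (number in brackets) whose 3 NLS-actin arrays all lay above (orange) or all below (blue) the 3 parental arrays, with dashed lines at the shares of all genes, 7.27% and 9.09%. Keratinocyte states reach 21.2% higher, and the immune and inflammatory and the signalling groups reach 15.1% and 13.1% lower.

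Most groups lay near these shares. Of the cytoskeleton group, 7.75% of 400 genes lay higher and 10.5% lower. Of transcription and chromatin, with 1037 genes, the shares were 7.52% and 9.93%, and of growth and survival, with 252 genes, 6.35% and 8.73%. Across the lists, 122 had a median difference within 0.2 of 0, against a median of -0.003 over all genes that were not dim. Keratinocyte states were above the background for higher genes, at 21.2% (14 of 66), the immune and inflammatory group for lower genes, at 15.1% (31 of 205), and the signalling group for lower genes, at 13.1% (48 of 367). Metabolism and stress had few lower genes, 5.14% (38 of 739), and 8.80% higher. Without replicate 2 of both lines, the background with 2 arrays per line was 20.3% higher and 23.7% lower, and the same groups gave 39.4% higher for keratinocyte states, 41.0% lower for immune and inflammatory genes, 31.9% lower for signalling and 14.2% lower for metabolism and stress.

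Interferon-induced genes formed the clearest of the immune lists. These are switched on by type I interferon and encode antiviral proteins. Of 47 measured, 40 lay lower in NLS-actin cells and 7 higher, none was called, and the median difference was -0.39. Among the 44 that were not dim, 12 (27.3%) had all 3 NLS-actin arrays below all 3 parental arrays and none had all above. The median of the 44 was -0.37, and it remained -0.35 after quantile normalization and -0.36 without the 3 arrays that stood apart. Over 19 alternatives this median lay between -0.55 and -0.19. Those that change only the block, the trend, the dim filter or the WT-actin arrays cannot move it. Taken array by array against the parental mean, the medians of the NLS-actin arrays ran from -0.48 to -0.02. IFI44 had parental signals of 1596, 1778 and 1340 and NLS-actin signals of 892, 700 and 724 (-1.02, adjusted p = 0.184). ISG15, a ubiquitin-like modifier, had 930, 1551 and 1083 against 545, 542 and 655 (-1.0, adjusted p = 0.289). The arrays of the lines did not overlap, but the difference did not pass the test in either gene. The GTPase genes MX1 and MX2 and the ISG15 ligase gene HERC5, chosen after their values were seen, showed differences of -1.48, -1.40 and -1.01. The median of the list against WT-actin cells was -0.21, and no member was called there. WT-actin replicate 1, 1 of the 3 arrays that stood apart, read 2480 for MX1 and 497 for MX2, above every other array.

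The promoters of 2 interferon-induced genes are printed to show the element that this family shares. They are the 160 bases before the gene start in RefSeq on GRCh38.p14, with matches in capitals to the interferon-stimulated response element, GAAANNGAAA on either strand. In ISG15 the capitals also cover a match to the SRF CArG box, a few bases downstream.
ISG15 (chr1:1013337-1013496, plus strand): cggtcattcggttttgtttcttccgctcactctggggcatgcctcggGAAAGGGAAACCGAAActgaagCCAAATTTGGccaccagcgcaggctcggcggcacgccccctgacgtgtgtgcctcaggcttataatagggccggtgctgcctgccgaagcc
IFI44 (chr1:78649629-78649788, plus strand): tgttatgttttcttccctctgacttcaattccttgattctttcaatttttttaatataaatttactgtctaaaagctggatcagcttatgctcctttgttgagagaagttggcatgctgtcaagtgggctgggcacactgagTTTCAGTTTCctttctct

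In windows of 300 bases, from 250 before to 50 after the start, the element occurred in 25 of 38 interferon-induced promoters with an entry (65.8%), in 3.65% of all 27305 promoters, and in 8 of 120 promoters (6.67%) of genes that lay more than 2-fold lower without overlap. The 25 called genes and the 7 added with the replicate block together had 23 promoters with an entry. None of these held the element, and none held a CArG box. The box occurred in 1.29% of all promoters and in 5 of 24 promoters (20.8%) of the contractile SRF target list described below. At shares as low as 3.65% and 1.29%, 23 promoters are too few for a count of none to show a lack of either site. An AP-1 site, TGANTCA, occurred in 1 of the 23 (7.76% of all promoters) and an NF-kB site in 2 (10.8% of all promoters). These 3 promoters are printed in the same way, with those matches in capitals.
STEAP2 (chr7:90211580-90211739, plus strand): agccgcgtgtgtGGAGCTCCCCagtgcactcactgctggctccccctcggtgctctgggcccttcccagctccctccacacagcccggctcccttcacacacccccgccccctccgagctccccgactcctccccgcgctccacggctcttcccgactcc
PRSS21 (chr16:2817077-2817236, plus strand): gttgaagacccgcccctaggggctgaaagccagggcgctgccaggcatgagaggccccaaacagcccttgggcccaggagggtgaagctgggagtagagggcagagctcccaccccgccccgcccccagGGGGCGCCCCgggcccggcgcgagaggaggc
ODAM (chr4:70195565-70195724, plus strand): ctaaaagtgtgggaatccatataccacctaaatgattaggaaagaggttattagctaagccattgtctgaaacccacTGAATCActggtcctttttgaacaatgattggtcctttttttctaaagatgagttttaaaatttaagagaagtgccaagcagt
The NF-kB matches in STEAP2 and PRSS21 and the AP-1 match in ODAM are descriptions of letters and no evidence of binding, and in this window their shares lay below those of all promoters.

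Transcription factors and cytokines of the same pathways lay in the same direction. Of 27 STAT, IRF and NF-kB genes measured, 22 lay lower and 5 higher, with STAT3 called. Among the 24 that were not dim, 6 (25%) had all NLS-actin arrays below the parental arrays. The median of the 24 was -0.25, or -0.20 after quantile normalization. IRF1 had parental signals of 427, 674 and 461 and NLS-actin signals of 236, 358 and 231 (-0.92), and IRF5 had 602, 828 and 487 against 170, 481 and 172 (-1.37); both were chosen after their values were seen. In both genes replicate 2 was the highest array of its line. Another probe set of IRF5 had means of 404 and 454 (0.17), and its remaining probe set was dim. Of 46 interleukin genes 33 were dim, and the median of the other 13 was -0.44. Over all 46 the median was -0.20, with 17 higher and 29 lower. IL6 had signals of 108, 47.7 and 128 against 38.6, 36.1 and 25 (-1.41, adjusted p = 0.569). Of 55 chemokine and receptor genes 43 were dim, and the other 12, CCL2 among them, had a median of -0.43. Over all 55 the median was -0.24, with 21 higher and 34 lower. Against WT-actin cells the median of the 12 was 0.27, and 3 genes of the list were called, 2 of them higher in NLS-actin cells. CXCL8, the neutrophil chemokine, had 1275, 990 and 1573 against 634, 498 and 530 (-1.19, adjusted p = 0.127) and was chosen after its values were seen, but WT-actin cells were lower still, at 307, 287 and 485. PTGS2, the inducible cyclooxygenase of prostaglandin synthesis, had 764, 748 and 1020 against 558, 336 and 566 (-0.82, adjusted p = 0.352). Antigen presentation genes had a median of -0.08 over 18 genes, 12 of them lower, or -0.16 without the 3 arrays. None had arrays that did not overlap, and without replicate 2 of both lines 6 (33.3%) lay lower and 1 higher.

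**Figure D4:**
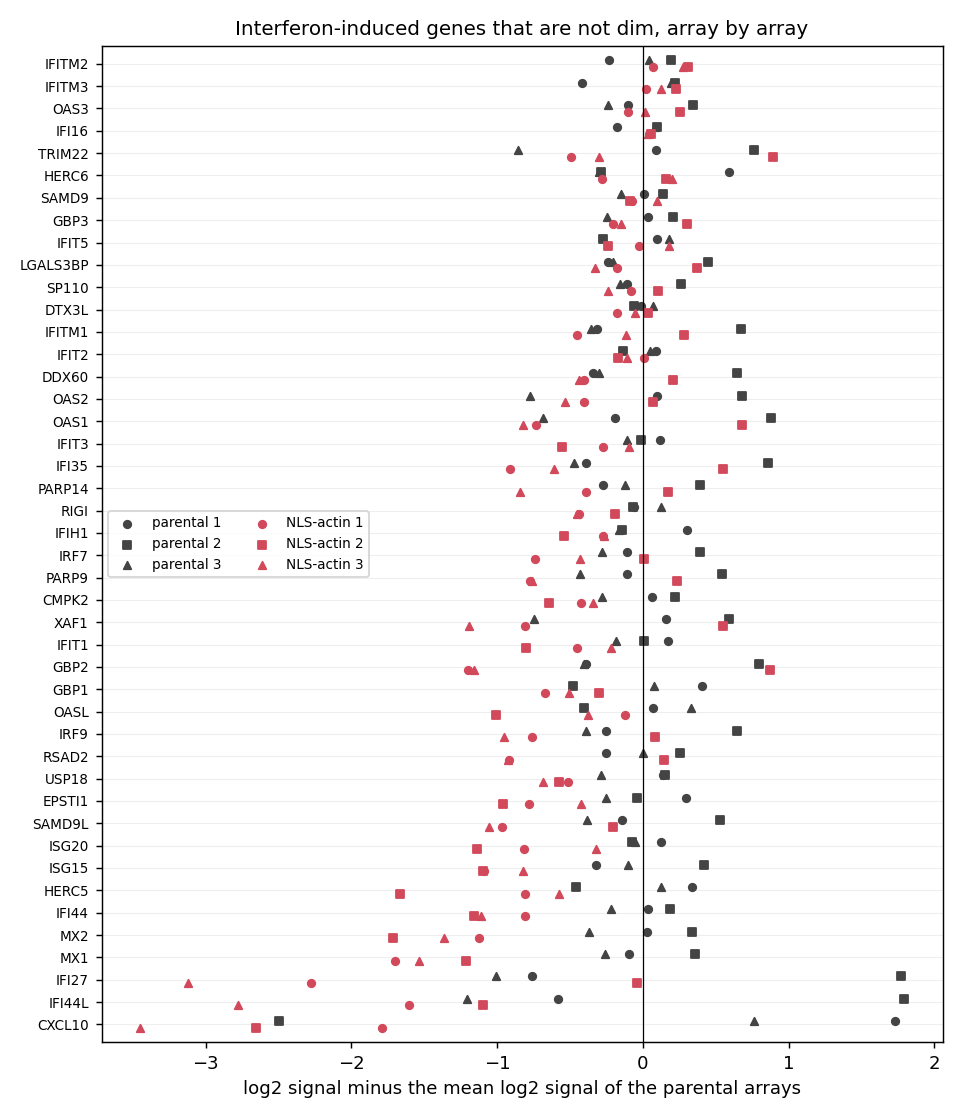
Each row is 1 of the 44 interferon-induced genes that are not dim, with the log2 signal of each of 3 parental (dark) and 3 NLS-actin (red) arrays minus the mean of the parental arrays, and a marker shape per replicate number. In the lower rows, such as MX1, MX2 and IFI44, all NLS-actin points lie left of the parental points, and in genes such as IFI27 and GBP2 replicate 2 lies right of the other arrays of its line in both lines.

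Of the lists of keratinocyte states, the cornified envelope leaned higher in NLS-actin cells. The cornified envelope is the cross-linked protein shell of terminally differentiated keratinocytes. Of 36 envelope genes measured, 23 lay higher and 13 lower, none was called, and the 16 that were not dim had a median of 0.33, both before and after quantile normalization, and 0.34 without the 3 arrays. Over the same 19 alternatives, some of which cannot move it, it lay between 0.19 and 0.46. Single NLS-actin arrays had medians from 0.03 to 0.46 against the parental mean. The arrays did not overlap for 5 of the 16 (31.2%), all higher. SPRR1B, a small proline-rich envelope precursor, had parental signals of 596, 779 and 412 and NLS-actin signals of 1025, 2141 and 818 (1.08, adjusted p = 0.659). CSTA, a cysteine protease inhibitor of the envelope, had 5725, 6855 and 7186 against 8618, 8819 and 9675 (0.46, adjusted p = 0.543), and PPL, which links the envelope to desmosomes, had 5871, 7011 and 7865 against 9604, 9139 and 10119 (0.49, adjusted p = 0.548). All 3 genes were separated between the lines, while SPRR1B was highest on replicate 2 in both. Against WT-actin cells, SPRR1B passed the test (2.45, adjusted p = 0.0188), as did the antiprotease PI3 (2.60, adjusted p = 0.00916) and the desmosomal cadherin DSG4 (4.62, adjusted p = 0.0124). The WT-actin signals of PI3 and DSG4 lay below the parental ones, for PI3 at 68.8, 38.4 and 87.5 against 235, 165 and 148. PI3 and the alarmin gene S100A7 showed differences of 1.06 and 1.07 from the parental line (adjusted p = 0.635 and 0.55).

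Of 11 suprabasal markers measured, 6 lay higher in NLS-actin cells and 5 lower. Among the 6 that were not dim, 4 lay higher and 2 lower, and none was separated between the lines. Single NLS-actin arrays had medians from -0.09 to 0.84 over these markers. The suprabasal keratin KRT1, 1 of them, varied widely within lines. Its signals were 62.1, 287 and 25 on the parental arrays and 371, 3305 and 265 on the NLS-actin arrays, with replicate 2 highest in both lines and an overlap between parental replicate 2 and NLS-actin replicate 3. Within each same-numbered pair the NLS-actin array was the higher. The difference of 3.17 ± 1.10 did not pass without a block (adjusted p = 0.55) or with the replicate block over these lines in the fit of 9 arrays (adjusted p = 0.154), but it passed in the fit of both lines alone with that block (adjusted p = 1.81e-05), a fit that called 0 genes without the intensity trend. Over the alarmin list, which also holds EGF family ligands, the median was 0.19 with all arrays and -0.30 without the 3 arrays, so that its direction rested on them. In the skin lipid list, the lipoxygenase gene ALOX12B had 20.3, 30.9 and 2.26 against 40.1, 378 and 70.1 (3.18, adjusted p = 0.57), and the lipid transporter gene ABCA12 of lamellar granules had 70.5, 90.3 and 87.0 against 177, 284 and 112 (1.11, adjusted p = 0.551). STS, the steroid sulfatase of the barrier, and FABP5, an epidermal fatty acid carrier, lay in the other direction, at -0.90 and -1.10. The counts of separated genes used the signals before quantile normalization. After it, the medians of S100 proteins and annexins, also keratinocyte states, went from 0.22 to 0.08 and from 0.17 to 0.06. Those of the skin lipid and alarmin lists went from 0.18 to 0.25 and from 0.19 to 0.32. Desmosome plaque genes had 5 of 11 (45.5%) separated higher and none lower, but their median of 0.19 became 0.03 after quantile normalization.

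**Figure D5:**
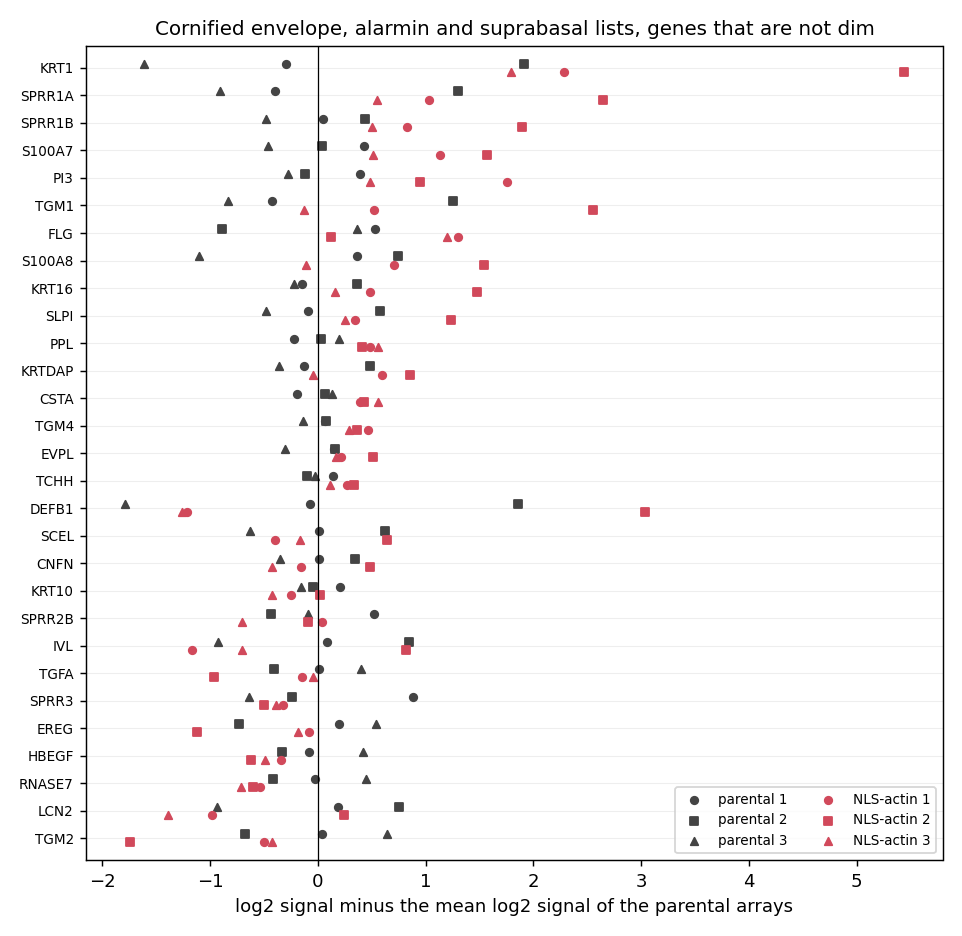
Genes of the cornified envelope, alarmin and suprabasal lists that are not dim, with the log2 signal of each of 3 parental (dark) and 3 NLS-actin (red) arrays minus the mean of the parental arrays, and a marker shape per replicate number. In KRT1 and SPRR1B, replicate 2 (squares) is the highest array of each line, while CSTA and PPL show NLS-actin points close together and right of the parental points.

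Adhesion, contraction and the SRF pathway were examined because the study asked how nuclear actin affects them. Of 27 contractile SRF target genes, 15 lay lower and 12 higher, none was called, and the median of the 24 that were not dim was -0.10, at -0.16 after quantile normalization. MYL9, the regulatory light chain of non-muscle myosin, had parental signals of 119, 111 and 150 and NLS-actin signals of 44.8, 38.7 and 40.1 (-1.61 ± 0.46, adjusted p = 0.357), and its arrays did not overlap. The other probe set of MYL9 was dim, with means of 3.14 and 9.76. TAGLN, a smooth muscle actin-binding protein chosen after its values were seen, had 145, 71.8 and 103 against 50.5, 52.8 and 41.1 (-1.10, adjusted p = 0.726). SRF itself and its coactivator gene MRTFA differed by -0.35 and -0.46 (adjusted p = 0.817 and 0.878), with overlapping arrays, and the other 4 probe sets of MRTFA had the opposite sign, 2 of them dim in both lines, 1 with means of 64.3 and 153 (1.29) and 1 with means of 20.5 and 155 (2.94). ITGB1 and VCL, the β1 integrin and the focal adhesion protein vinculin, differed by -0.04 and 0.18 on their brightest probe sets (adjusted p = 0.978 and 0.857). The other probe set of VCL was dim, with means of 16.5 and 3.3, as were 4 of the other 6 of ITGB1, while the remaining 2 of ITGB1 differed by -0.63 and -0.81. Of 39 focal adhesion genes that were not dim, 3 (7.69%) were separated higher and 7 (17.9%) lower, against 7.27% and 9.09% of all genes. The median of the 39 was -0.01. Among these, PARVB had 83.7, 92.5 and 67.9 against 39.6, 33.9 and 35.5 (-1.15, adjusted p = 0.645), and TNS4 had 5027, 4842 and 6773 against 4157, 3381 and 3418 (-0.59, adjusted p = 0.412).

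Other cytoskeletal families showed single genes apart. TUBA1A, an α-tubulin, had 212, 149 and 92.3 against 10.4, 67.2 and 26.6 (-2.43, adjusted p = 0.195), while the 22 tubulins that were not dim had a median of -0.12, or 0.00 without the 3 arrays. Nuclear actin transport and actin-related genes had a median of 0.04 over 20 genes, -0.05 after quantile normalization. IPO9, XPO6 and CFL1, the importer, the exporter and the cofilin that accompanies imported actin, differed by -0.10, 0.11 and 0.18 (adjusted p = 0.944, 0.945 and 0.908), all with overlapping arrays. Of the other probe sets of CFL1, 2 were dim and 1 differed by -0.50. Of the other genes that the study examined, NFATC1 had 50.7, 45.0 and 48.8 against 50.5, 63.9 and 64.1 (0.30, adjusted p = 0.948), and BCL2 was dim, with 40.8, 36.4 and 35.3 against 50.8, 39.2 and 22.9 (-0.07, adjusted p = 0.99). All 4 probe sets of BCL2 were dim, and their mean difference had the opposite sign, at 0.79. The other probe sets of NFATC1 differed by 0.40, -2.15, -0.77 and 2.43, all but the first of them dim.

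Chromatin and transcription machinery, where actin is a subunit or partner, showed small median differences. The shares of all genes that were not dim were 7.27% separated higher and 9.09% lower. Of 51 genes listed under actin-containing remodelling complexes, 3 were separated higher (5.88%) and 7 lower (13.7%), and the median was -0.03. SMARCA1, also in that list, is the ATPase of an ISWI complex, which is not among the complexes that the paper names as actin partners. Its signals were 1744, 1801 and 1136 against 939, 942 and 831 (-0.76, adjusted p = 0.483). BCL7B, an accessory subunit of BAF complexes, had 1077, 1036 and 1005 against 738, 659 and 642 (-0.62, adjusted p = 0.532). Of 28 Mediator subunits, 1 was separated higher (3.57%) and 6 lower (21.4%), and the median was -0.07. Without replicate 2 of both lines, 10.7% lay higher and 35.7% lower, against 20.3% and 23.7% of all genes that were not dim. MED1, the subunit that nuclear receptors contact, had 749, 710 and 902 against 479, 400 and 377 (-0.91, adjusted p = 0.366). Of 72 RNA polymerase subunits and general factors, 4 were separated higher (5.56%) and 9 lower (12.5%), with a median of -0.05. The 358 zinc finger ZNF genes that were not dim were balanced, with 31 higher (8.66%), 32 lower (8.94%) and a median of 0.01. BCL11B, a zinc finger factor of skin and T cells, had 122, 201 and 172 against 326, 771 and 368 (1.48, adjusted p = 0.334), and WT-actin cells were at 17.4, 18.7 and 34.4, so that it passed against that line (4.34, adjusted p = 0.000532).

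In signalling, the lower genes were spread over many receptors and regulators. PRKCQ, a protein kinase C isoform, had 120, 91.5 and 79.6 against 7.46, 4.23 and 37.7 (-3.17, adjusted p = 0.143). FGF5, a regulator of hair growth, had 108, 55.0 and 112 against 22.1, 6.95 and 28.3 (-2.42, adjusted p = 0.672), although the 10 FGF genes that were not dim had a median of 0.30, with 4 separated higher and 1 lower, and all 26 measured had a median of 0.21. SPRY1 and DUSP5, both brakes on MAP kinase signals, differed by -1.19 and -1.27 (adjusted p = 0.366 and 0.269), and the neuregulin receptor ERBB4 by -1.53 (adjusted p = 0.176). In the TGF-β superfamily, where BAMBI fell, the BMP receptor BMPR1B had 261, 159 and 160 against 41.0, 66.6 and 79.4 (-1.64, adjusted p = 0.269), while the ligand BMP7 had 882, 1752 and 891 against 1847, 3859 and 1971 (1.12, adjusted p = 0.434). BMPR1B and BMP7 were chosen after their values were seen. The whole list of 37 genes that were not dim had a median of -0.03. In it 3 were separated higher (8.11%) and 7 lower (18.9%), against 7.27% and 9.09% of all genes.

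In transport and metabolism single genes differed widely. The organic anion transporter SLCO1B3, normally a liver protein, had signals of 9.95, 14.3 and 13.1 on the parental arrays and 250, 298 and 220 on the NLS-actin arrays (4.37 ± 0.80, adjusted p = 0.0809), just short of the threshold, and it passed against WT-actin cells (6.5, adjusted p = 0.00252). The glucose transporter SLC2A3 had 169, 136 and 147 against 421, 361 and 392 (1.38, adjusted p = 0.0706). Both genes were separated with little spread between replicates. ABCG1, a sterol exporter, had 98.7, 242 and 131 against 641, 1003 and 444 (2.17, adjusted p = 0.184), and ALDH1A1, which makes retinoic acid, had 15.3, 27.5 and 13.1 against 112, 503 and 62.0 (3.10, adjusted p = 0.195). The 216 solute carriers that were not dim had 21 separated higher (9.72%) and 27 lower (12.5%), against 7.27% and 9.09% of all genes. Among lower genes, CYP24A1, which degrades vitamin D hormone, had 155, 67.5 and 130 against 47.5, 10 and 37.1 (-2.09, adjusted p = 0.352), and ACSL5, an acyl-CoA synthetase, had 109, 175 and 42.7 against 21.5, 24.6 and 19.8 (-2.10, adjusted p = 0.29). In both, the NLS-actin arrays lay below the lowest parental array.

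Large families of housekeeping machinery differed by small amounts that depended on the scaling. Of 57 cytosolic ribosomal protein genes measured, 53 lay higher in NLS-actin cells, and the 55 that were not dim had a median of 0.22 that became 0.01 after quantile normalization. For 80 respiratory chain genes, 16 were separated higher and 1 lower (20% and 1.25%), and the median of 0.10 became -0.02, so that its direction turned. Glycolysis kept its direction, with 23 of 28 measured genes higher, 22 of the 26 that were not dim, 6 separated higher and none lower, and medians of 0.22 and 0.11. The 7 basal keratinocyte markers also had a median of 0.21, and of 0.01 after quantile normalization. Mitosis genes, with 6 of 40 separated lower (15%) and none higher, had a median of 0.04, or -0.06 after quantile normalization. No difference in the list was beyond -0.40. Without replicate 2 of both lines, 12 (30%) lay higher and 7 (17.5%) lower, against 20.3% and 23.7% of all genes that were not dim. The lean to lower genes thus rested on those arrays.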

How the data were processed

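Total RNA of 3 parental, 3 WT-actin and 3 NLS-actin samples was hybridized to Affymetrix U133 Plus 2.0 arrays. The deposited values are linear MAS5 signal intensities made by the authors, who scaled each array to a common trimmed mean; the software version is not given in the sources used here. Arrays have no read depth, and their number limits the precision. Of 54613 probe sets, 41091 had 1 gene symbol, giving 19775 genes, each read by its brightest probe set. The intensities were put on the log2 scale and fitted over all 9 arrays with limma 3.58.1 (lmFit, eBayes with an intensity trend) in R 4.3.3, with Benjamini-Hochberg adjustment over all genes; the code was tested on simulated data. Python 3.11.15 served for the tables (pandas 2.3.3) and the plots (matplotlib 3.10.9). Groups came from the sample labels. Named were all called genes, separated genes called with the replicate block at a mean signal of at least 200, up to 4 passing genes per list or else up to 2 that were not dim with the smallest unadjusted p under 0.05, called genes with a printed promoter, and genes that the study examined. The text marks most of those chosen after their values were seen, which were also SPRR1B, DSG4, ALOX12B, FABP5, the examples in captions and the ISG15 and IFI44 promoters. The gene lists were chosen with earlier results of these data known. Same-numbered arrays of the parental and NLS-actin lines had residual correlations of 0.234, 0.791 and 0.417, so by a fixed limit of 0.1 the numbers were taken as pairs in an alternative fit. Replicates 1 and 3 also correlated across numbers (0.535 and 0.334), so that the replicate 2 arrays alone stood apart. Other alternatives were another scaling, offset, filter, probe set rule, test, set of arrays and leaving out each array. PAK1 was not analysed here.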

Additional observations from a re-analysis of the deposited data

How the results depend on the processing

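The count of 25 called genes changed with the setting, and so did the genes. It was 15 with the parental and NLS-actin lines alone (13 of them among the 25) and 4 with Tukey's test (1 among the 25). It was 10 with the mean of all probe sets (9 among the 25) and 10 without the intensity trend (5 among the 25). When 1 array was left out, it was 4 to 27. With the replicate block, which treats same-numbered arrays as pairs, there were 27 genes within both lines, 18 over 9 arrays, and 376 in a fit of both lines alone. That last fit without the intensity trend gave 0 genes by limma (1718 at an unadjusted p under 0.05). The 626 genes by unadjusted p and fold became 326 with Tukey's test, 234 with the filter on dim genes, 416 with the offset and 943 with both lines, the block and no trend, and 542 to 780 with 1 array left out. Of these 626, 36.4% were higher, against 52% without parental replicate 2 and 25.4% without NLS-actin replicate 2. The 17 called genes that also differed from WT-actin cells became 11 with the mean of all probe sets, 10 without the trend and 10 with the block within both lines, and 12 to 17 with 1 array left out. Lists with a median beyond 0.2 numbered 16 of 138, and 11 to 24 under the alternatives. Over 117 named genes no called value changed sign. Low signals limit the precision of the 396 dim genes among the 626.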
